A study of Mus musculus with 8 samples.

Results

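The 10 genes described here encode 2 annexins (Anxa1 and Anxa2), 4 S100 proteins (S100a4, S100a6, S100a10 and S100a11), 2 galectins (Lgals1 and Lgals3), vimentin (Vim) and the giant scaffold protein AHNAK (Ahnak). They were taken by exact symbol, and each had 1 row among the 23746 rows of every gene table. RNA was sequenced from CD8+ T cells of BALB/c mice that bound the AH1 tetramer, so their receptors recognise AH1, a peptide from the envelope of an endogenous murine leukaemia virus. The libraries fell into 4 groups of 2: Cd69-/- cells of the subset labelled term diff (term-diff here), wild-type term-diff cells, Cd69-/- cells of the stem-like subset, and wild-type stem-like cells. Cells were sorted live, and the cDNA libraries came from total RNA with a stranded low-input kit. The Cd69 allele, the tumour, the age and number of mice, the sort gates and whether a library pooled mice were not given in the sources used here. Because nothing states that libraries of a group came from separate mice, p-values measure the spread between libraries, which may be technical.

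Values are FPKM, fragment counts that the authors normalised to transcript length and library size before deposit. Differences are on the scale of log2(FPKM + 1), which understates the change of genes at low FPKM, and are given ± standard error with the Benjamini-Hochberg adjusted p of a limma model over the 9782 genes that reached 1 FPKM in at least 2 libraries. A gene is said to have risen or fallen where that p was below 0.05. All 10 genes passed the filter, but Anxa1 passed it through its 4 Cd69-/- libraries and was under 1 FPKM in all 4 wild-type libraries. Fragments implied by the deposited confidence limits summed to 2055402 to 2591061 per library. Both wild-type replicate 2 libraries stood apart in their small RNA share of FPKM: small RNA rows held 55.1% of the FPKM in wild-type term-diff 2 and 62.5% in wild-type stem-like 2, against 77.2% to 84.1% in the other 6 libraries. Of the implied fragments, these rows held 0.166% in wild-type term-diff 2, 0.403% in wild-type stem-like 2 and 0.319% to 0.677% in the other 6. By that share wild-type stem-like 2 did not stand apart. Cd69 itself was at 2.21 to 2.43 FPKM in Cd69-/- term-diff, 10.4 to 12.9 in wild-type term-diff, 2.42 to 3.69 in Cd69-/- stem-like and 22.5 to 23.4 in wild-type stem-like libraries. Havcr2, a receptor of terminally exhausted cells, was at 23.3 to 39.7 FPKM in term-diff and 0.847 to 2.29 in stem-like libraries. Tcf7, a transcription factor of stem-like cells, was at 0.228 to 0.755 FPKM in term-diff and 40.6 to 64.2 in stem-like libraries, so the labels fitted these genes.

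Markers of other cells that express annexins, S100 proteins and vimentin were low. The 11 myeloid markers with a row summed to 3.37 to 5.58 FPKM in Cd69-/- term-diff, 2.64 to 5.70 in wild-type term-diff, 7.52 to 8.52 in Cd69-/- stem-like and 5.47 to 6.72 in wild-type stem-like libraries, with Cd68 the highest at 3.32. None of the neutrophil, fibroblast, epithelial and tumour, or B cell markers reached 1 FPKM in any library, none was at 0 in all 8, and Pecam1 was the only endothelial marker to reach 1 FPKM (up to 13.8). Among other lists, Cd4 reached 5.52 FPKM and Eomes, the only NK cell marker to reach 1 FPKM, 6.84. Of 7 dendritic cell markers 4 reached 1 FPKM, with H2-Ab1 the highest at 2.47. The 5 CD8 T cell markers summed to 1085 to 1198 FPKM in Cd69-/- term-diff, 791 to 859 in wild-type term-diff, 952 to 989 in Cd69-/- stem-like and 836 to 959 in wild-type stem-like libraries, so their sum too was highest in Cd69-/- term-diff. Both Cd69-/- term-diff libraries lay above all others for Cd3d and for Cd3g (605 and 576 FPKM). Cd8a (166 and 129), Cd8b1 (167 and 139) and Cd3e (220 and 204) overlapped other groups. The part of these markers in the results below was not tested. In bulk samples such as these, a larger share of cells of one state and more RNA per cell cannot be told apart.

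Annexins bind phospholipid membranes when calcium rises, and they organise membrane repair, exocytosis and cortical actin. S100 proteins are small EF-hand dimers that bind partner proteins when loaded with calcium. S100a10 is the exception, since it does not bind calcium and works as the stable partner of annexin A2, in a complex that also docks AHNAK at the plasma membrane. Galectins bind beta-galactoside sugars on glycoproteins, and vimentin is an intermediate filament protein of lymphocytes and of mesenchymal cells. In CD8+ T cells several of these genes are classed with effector, memory and migratory states and are low in naive cells.

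RefSeq (GRCm38.p6) promoter sequence was matched for 8 of the 10 genes, Anxa1, Anxa2, S100a4, S100a6, S100a11, Lgals3, Vim and Ahnak, each with a start site at the 5′ end of its deposited locus. The 120 bases before the start are printed for the 4 genes with a TATAAA box and for S100a11, which carries an AP-1 match as Anxa2 does, because these motifs were the least common in the genome relative to their share in the set. Capitals mark the motifs searched on both strands. The letters searched were TATAAA for the TATA box, TGANTCA for the AP-1 site, GGGCGG for the Sp1 box, TGTGGT for the RUNX site and CCGGAA for the ETS site. None of the motifs marked overlaps another.
Anxa1, chr19:20390672-20390791, minus strand: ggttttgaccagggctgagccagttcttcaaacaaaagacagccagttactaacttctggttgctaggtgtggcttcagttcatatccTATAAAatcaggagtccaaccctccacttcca
Anxa2, chr9:69453563-69453682, plus strand: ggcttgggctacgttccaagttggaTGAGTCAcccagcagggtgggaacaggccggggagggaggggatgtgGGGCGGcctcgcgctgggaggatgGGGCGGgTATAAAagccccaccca
S100a4, chr3:90603650-90603769, plus strand: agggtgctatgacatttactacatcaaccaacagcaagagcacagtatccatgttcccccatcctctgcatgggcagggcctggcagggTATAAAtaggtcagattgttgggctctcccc
S100a11, chr3:93520376-93520495, plus strand: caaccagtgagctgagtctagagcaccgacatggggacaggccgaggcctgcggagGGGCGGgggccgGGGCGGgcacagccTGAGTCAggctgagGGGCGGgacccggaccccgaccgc
Vim, chr2:13574191-13574310, plus strand: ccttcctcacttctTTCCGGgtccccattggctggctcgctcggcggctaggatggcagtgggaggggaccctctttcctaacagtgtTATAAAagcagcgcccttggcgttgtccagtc

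In the 250 bases before the start, TATAAA was present in 4 of the 8 promoters and in 12.4% of 32851 mouse promoters of the same length. Its first base lay at -32 in Anxa1 and Vim, -31 in S100a4 and -17 in Anxa2, counted from -1 at the last base before the start. The AP-1 letters were in 2 of the 8 promoters, at -95 in Anxa2 and at -136 and -38 in S100a11, against 6.75% of all promoters. The Sp1 letters were in 4 of 8 (32.7% of all), the ETS letters in 2 of 8 (12%) and the RUNX letters in 1 of 8, S100a6 (14%). A match describes the letters of the window and is not evidence that a factor binds there.

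The genes were highest in Cd69-/- term-diff cells. For 9 of the 10, all but Ahnak, both Cd69-/- term-diff libraries lay above the other 6 libraries, which was the case for 7.6% of the 9782 genes. That share is not matched for transcript length, and 5 of the 10 genes have transcripts under 1000 bases. Of other genes that short with a mean of at least 5 FPKM, 90.3% were above 0 in Cd69-/- minus wild-type term-diff. In term-diff minus stem-like of Cd69-/- cells 84.7% of them were. The part of length in the order of these libraries was not tested. In Cd69-/- cells 7 of the 10 (Vim, Lgals3, S100a6, S100a11, S100a4, Lgals1 and Anxa1) rose in term-diff relative to stem-like, where 3.88% of all genes were called higher. In wild-type cells the first 5 of these rose, against 7.24% of all genes. Over both genotypes 7 rose (those 5 with Anxa2 and Lgals1), against 10.5%. None of the 10 fell in any of these comparisons, where 5.56% of all genes fell in Cd69-/-, 5.83% in wild type and 9.93% over both genotypes. Between the genotypes, Anxa1 rose in Cd69-/- term-diff cells, the only 1 of the 10 to do so in that subset (0.112% of all genes were called higher), and none passed in stem-like cells (0.0409% called higher). Anxa1 passed the filter through its Cd69-/- libraries alone, so its genotype calls are not independent of the filter. Over both subsets Vim, Anxa1 and Lgals3 rose in Cd69-/- cells, against 0.266% of all genes. None fell between the genotypes, where 0.0818% of all genes fell in term-diff, 0.112% in stem-like and 0.276% over both subsets. Leaving out wild-type term-diff 2 and wild-type stem-like 2, an alternative chosen after the data were seen, left each wild-type group with 1 library. The call of S100a4 in wild-type cells was then lost (difference of 0.88), and so were all calls between the genotypes, while the other subset calls were kept. The genotype differences were then 1.52 for Anxa1 in term-diff, and 0.91 for Anxa1, 0.94 for Lgals3 and 0.80 for Vim over both subsets. Fewer of all genes passed in each comparison that lost a call, too.

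**Figure D1:**
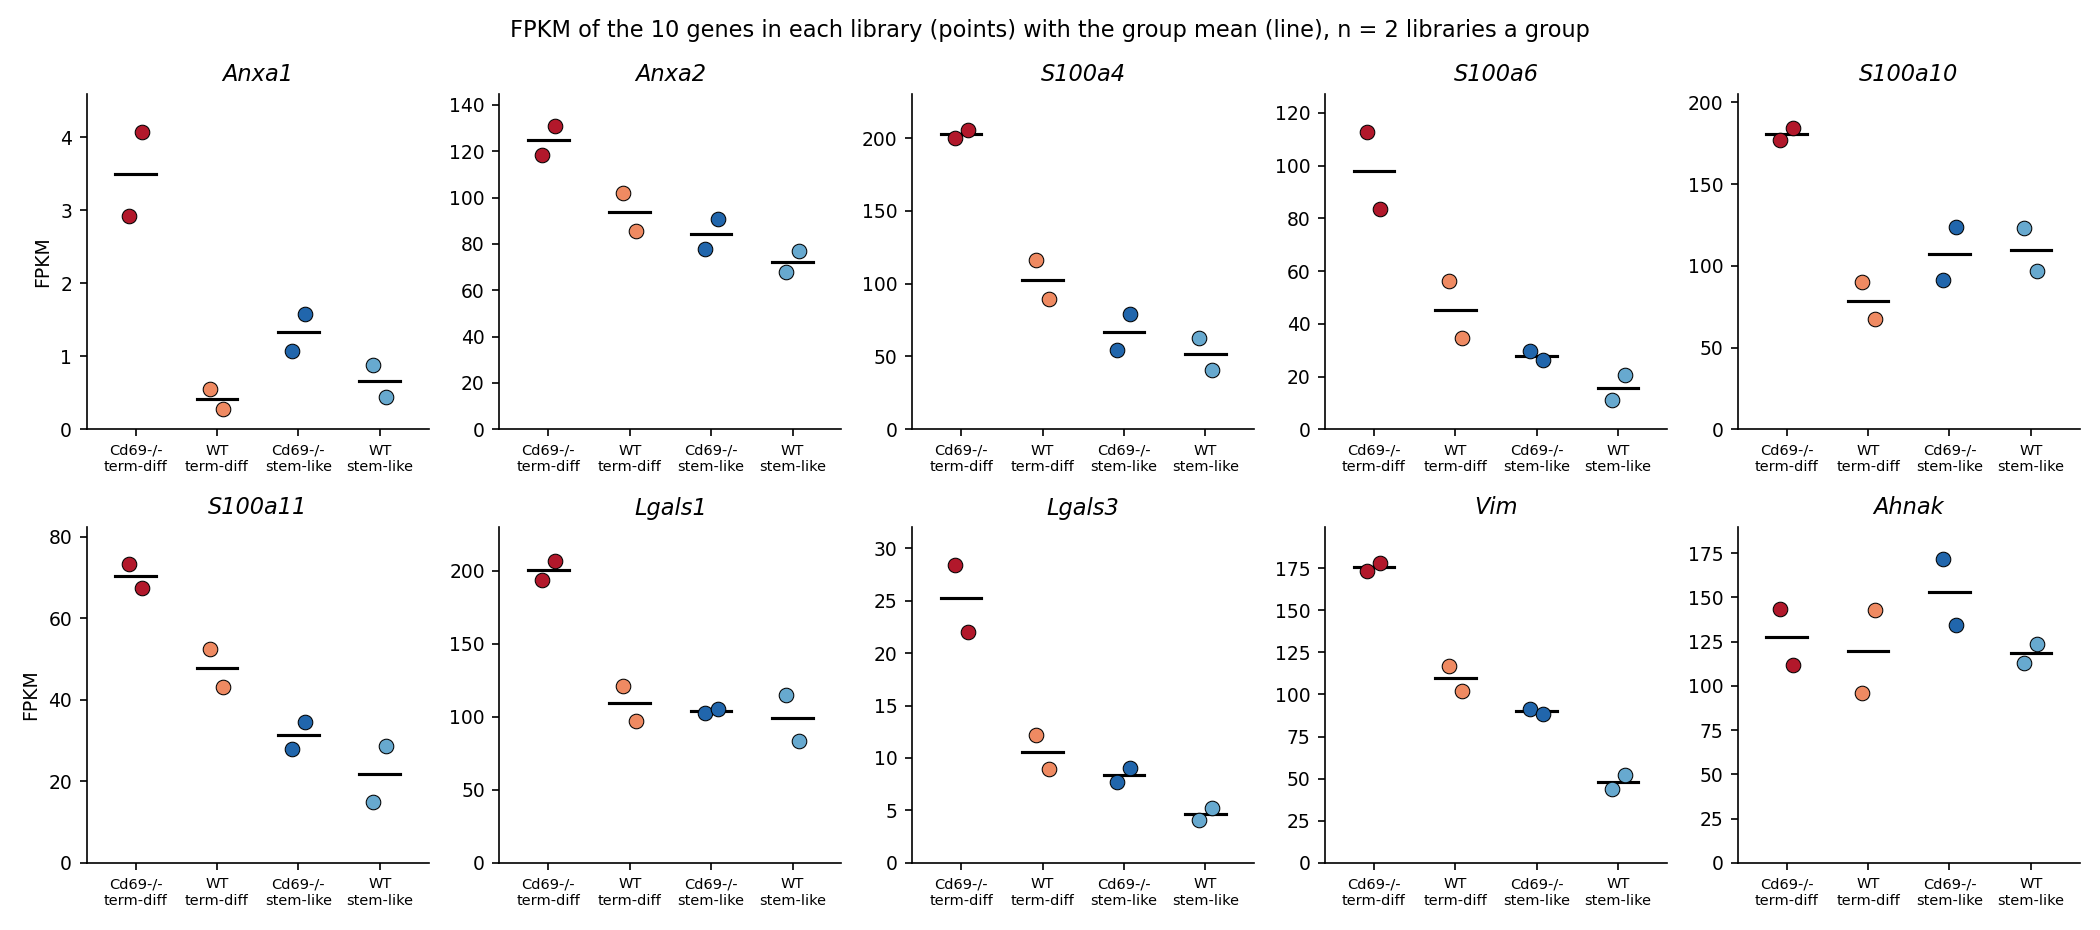
FPKM of each of the 10 genes (1 panel a gene, vertical axis in FPKM from 0) in the 2 libraries of each group (points) with the group mean (line). In every panel but that of Ahnak both Cd69-/- term-diff points lie above all other points, and Anxa1 is plotted on an axis that ends near 4 FPKM while Lgals1 and S100a4 reach over 200.

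Anxa2 encodes the abundant annexin that links membranes to actin and holds S100A10 at the cell surface. It lies at chr9:69453683-69491785 (mm10, plus strand) and overlaps the antisense gene Gm16144, and the strand setting of the counting was not given in the sources used here. Anxa2 was at 119 and 131 FPKM in Cd69-/- term-diff libraries, 102 and 85.6 in wild-type term-diff, 77.8 and 90.9 in Cd69-/- stem-like, and 67.8 and 76.9 in wild-type stem-like. Term-diff libraries lay above the stem-like libraries of their own genotype, and the highest library was 1.93 times the lowest, a narrow range beside most of the other genes. The subset difference was 0.56 ± 0.16 in Cd69-/- (adjusted p = 0.0704) and 0.37 ± 0.16 in wild-type cells (adjusted p = 0.186), and neither passed. Over both genotypes Anxa2 rose by 0.46 ± 0.12 in term-diff (adjusted p = 0.0237). That call was lost without any of 5 libraries (Cd69-/- term-diff 1 and 2, wild-type term-diff 1, and replicate 1 of both stem-like groups), with adjusted p of 0.0509 to 0.0984.

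S100a10 encodes p11, the light chain of the annexin A2 tetramer, which is degraded when annexin A2 is missing. It lies at chr3:93555117-93564645 (plus strand). S100a10 was at 177 and 184 FPKM in Cd69-/- term-diff libraries, 89.9 and 67.4 in wild-type term-diff, 91.2 and 124 in Cd69-/- stem-like, and 123 and 96.6 in wild-type stem-like. Both wild-type term-diff libraries were the lowest of the 8, and both Cd69-/- term-diff libraries the highest. The subset difference was therefore positive in Cd69-/- cells (0.76 ± 0.22, adjusted p = 0.0688) and negative in wild-type cells (-0.48 ± 0.22, adjusted p = 0.196), and neither passed. Within term-diff cells the Cd69-/- mean was 181 ± 5.39 FPKM and the wild-type mean 78.6 ± 15.9 FPKM (SD, n = 2 each), a difference of 1.20 ± 0.22 (adjusted p = 0.102). The 2 stem-like groups overlapped, with a difference of -0.04 ± 0.22 (adjusted p = 0.984).

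Because S100A10 and annexin A2 are partners, their transcripts were compared within each library. The ratio of S100a10 to Anxa2 FPKM was 1.49 and 1.41 in Cd69-/- term-diff libraries, 0.881 and 0.787 in wild-type term-diff, 1.17 and 1.36 in Cd69-/- stem-like, and 1.81 and 1.26 in wild-type stem-like. Wild-type term-diff cells were the only group below 1, and the other 3 groups overlapped in part. Scaling cancels in this ratio, but a trend with transcript length (685 bases for S100a10 and 1447 for Anxa2, described with the genotype comparison) does not.

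Ahnak encodes a giant scaffold that binds the annexin A2 and S100A10 complex and calcium channels of T cells, and its longest annotated transcript, of 18100 bases, was the longest of the set. At chr19:8989284-9076919 (plus strand), it was at 143 and 112 FPKM in Cd69-/- term-diff libraries, 96.0 and 143 in wild-type term-diff, 172 and 134 in Cd69-/- stem-like, and 113 and 124 in wild-type stem-like. All neighbouring groups overlapped, and the highest library was 1.79 times the lowest, the smallest range among the 10 genes. No comparison of Ahnak passed. Its subset difference was -0.26 ± 0.24 in Cd69-/- cells (adjusted p = 0.541) and -0.01 ± 0.24 in wild-type cells (adjusted p = 0.983). In Cd69-/- term-diff 1 Ahnak had 1010 implied fragments at 143 FPKM, fewer than the 2437 of Vim (2193 bases) at 173 FPKM. The transcript length behind the deposited FPKM of Ahnak was not given, so its length class below is uncertain.

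Anxa1 encodes annexin A1, the glucocorticoid-induced annexin known for restraining inflammation through formyl peptide receptors. It was by far the least abundant of the 10, at 2.92 and 4.07 FPKM in Cd69-/- term-diff libraries, 0.558 and 0.276 in wild-type term-diff, 1.07 and 1.58 in Cd69-/- stem-like, and 0.874 and 0.448 in wild-type stem-like. These levels stood for 30.0 and 37.6 implied fragments in Cd69-/- term-diff, 6 and 3 in wild-type term-diff, 11 and 16 in Cd69-/- stem-like and 9 and 4 in wild-type stem-like libraries. All 4 Cd69-/- libraries were above all 4 wild-type libraries, the only gene of the 10 with that order, which 1.75% of all genes shared. Because Anxa1 passed the filter through its Cd69-/- libraries alone, that order is not independent of the filter.

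Between the genotypes Anxa1 rose in term-diff cells by 1.66 ± 0.21 (adjusted p = 0.0335), with a mean of 3.49 ± 0.814 FPKM in Cd69-/- and 0.417 ± 0.199 FPKM in wild-type libraries (SD, n = 2 each), a ratio of means of 8.37. In stem-like cells the difference was 0.49 ± 0.21 (adjusted p = 0.681), and over both subsets Anxa1 rose by 1.08 ± 0.15 (adjusted p = 0.0228). Its call within term-diff was lost without any of the 4 term-diff libraries or either Cd69-/- stem-like library (adjusted p of 0.0568 to 0.284). The call over both subsets ended without any of 6 libraries, all but wild-type term-diff 1 and wild-type stem-like 1 (0.0582 to 0.104). Within Cd69-/- cells Anxa1 rose in term-diff by 0.94 ± 0.21 (adjusted p = 0.0292), a call that needed each of the 4 Cd69-/- libraries (0.0596 to 0.191 without 1 of them). In wild-type cells its subset difference was -0.22 ± 0.21 (adjusted p = 0.543). The gene lies at chr19:20373434-20390671 on the minus strand and overlaps the antisense gene 1500015L24Rik, whose reads cannot be told apart from its own where strand was not used in counting.

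S100a4, also known as metastasin, binds non-muscle myosin and marks effector and memory T cells. It lies at chr3:90603770-90606045 (plus strand), in the S100 gene cluster, and overlaps the annotated gene Gm42674. S100a4 was at 199.8 and 205 FPKM in Cd69-/- term-diff libraries, 116 and 89.2 in wild-type term-diff, 54.8 and 79.2 in Cd69-/- stem-like, and 62.4 and 40.7 in wild-type stem-like. All term-diff libraries lay above all stem-like libraries, while the stem-like groups overlapped each other. It rose in term-diff by 1.61 ± 0.25 in Cd69-/- cells (adjusted p = 0.00715) and by 1.00 ± 0.25 in wild-type cells (adjusted p = 0.0370). The Cd69-/- call was lost without Cd69-/- term-diff 2 or stem-like 1 (0.0529 and 0.0599), and the wild-type call without any of 5 libraries, both of each term-diff group and wild-type stem-like 2 (0.0623 to 0.164). Over both genotypes the rise was 1.30 ± 0.18 (adjusted p = 0.00159), and it held without any single library.

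S100a6, or calcyclin, is a calcium sensor linked to proliferation and the cytoskeleton, and it lies near S100a4 at chr3:90612894-90614414 (plus strand). It was at 113 and 83.4 FPKM in Cd69-/- term-diff libraries, 56.3 and 34.5 in wild-type term-diff, 29.6 and 26.1 in Cd69-/- stem-like, and 11 and 20.5 in wild-type stem-like. The 4 groups did not overlap and stood in that order, with a highest library 10.3 times the lowest. In term-diff S100a6 rose by 1.77 ± 0.31 in Cd69-/- (adjusted p = 0.0112) and by 1.49 ± 0.31 in wild-type cells (adjusted p = 0.0181), which were the largest subset differences of the set in each genotype. The first call ended without Cd69-/- term-diff 1 or either Cd69-/- stem-like library (0.0599 to 0.0795), and the second without replicate 1 of either wild-type group (0.0885 to 0.0955). Over both genotypes the rise of 1.63 ± 0.22 (adjusted p = 0.00145) held without any single library. Between the genotypes its differences of 1.12 ± 0.31 in term-diff (adjusted p = 0.204) and 0.84 ± 0.31 in stem-like cells (adjusted p = 0.600) did not pass.

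S100a11, or calgizzarin, binds annexin A1 and takes part in membrane repair. It lies at chr3:93520496-93526288 (plus strand) beside S100a10, and the genome holds a pseudogene, S100a11-ps, whose reads could be shared. S100a11 was at 73.3 and 67.4 FPKM in Cd69-/- term-diff libraries, 52.4 and 43.1 in wild-type term-diff, 27.9 and 34.6 in Cd69-/- stem-like, and 14.8 and 28.7 in wild-type stem-like. All 4 term-diff libraries lay above all 4 stem-like libraries, and the stem-like groups overlapped. The rise in term-diff was 1.15 ± 0.27 in Cd69-/- cells (adjusted p = 0.0345) and 1.16 ± 0.27 in wild-type cells (adjusted p = 0.0268). Leaving out any of the 4 Cd69-/- libraries ended the first call (0.0796 to 0.202), and leaving out either wild-type term-diff library or wild-type stem-like 1 ended the second (0.0728 to 0.125). The rise over both genotypes, 1.16 ± 0.19 (adjusted p = 0.00389), held without any single library.

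Lgals1 encodes galectin-1, which dampens T cell responses and can induce apoptosis of activated T cells when secreted. It lies at chr15:78926725-78930465 (plus strand), and 2 pseudogenes carry its name (Lgals1-ps1 and Lgals1-ps2). Lgals1 was at 194 and 207 FPKM in Cd69-/- term-diff libraries, 121 and 97.3 in wild-type term-diff, 103 and 106 in Cd69-/- stem-like, and 115 and 83.2 in wild-type stem-like. Only the Cd69-/- term-diff group stood apart, and the other 3 groups overlapped. In Cd69-/- cells Lgals1 rose in term-diff by 0.94 ± 0.20 (adjusted p = 0.0223), a call lost without any of the 4 Cd69-/- libraries (0.0887 to 0.136). In wild-type cells the subset difference was 0.15 ± 0.20 (adjusted p = 0.673). The rise over both genotypes was 0.54 ± 0.14 (adjusted p = 0.0265) and was lost without any of 6 libraries, all but wild-type term-diff 2 and wild-type stem-like 1 (0.0645 to 0.0875).

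Lgals3 encodes galectin-3, the chimaeric galectin that forms lattices on the T cell surface and acts inside the cell on survival. It lies at chr14:47373860-47386167 (plus strand). Lgals3 was at 28.4 and 22.0 FPKM in Cd69-/- term-diff libraries, 12.2 and 8.97 in wild-type term-diff, 7.71 and 9.03 in Cd69-/- stem-like, and 4.04 and 5.22 in wild-type stem-like. The wild-type term-diff and Cd69-/- stem-like groups overlapped, and the other neighbouring groups did not. It rose in term-diff by 1.48 ± 0.19 in Cd69-/- cells (adjusted p = 0.00265), a call that held without any single library. In wild-type cells it rose by 1.03 ± 0.19 (adjusted p = 0.0106), which was lost without replicate 1 of either wild-type group (0.0638 and 0.0702). Over both subsets Lgals3 rose in Cd69-/- relative to wild-type cells by 0.96 ± 0.13 (adjusted p = 0.0228), and that call was lost without any of 7 libraries, all but wild-type term-diff 1 (0.0510 to 0.107). Within term-diff the genotype difference was 1.18 ± 0.19 (adjusted p = 0.0727).

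Vim, at chr2:13574311-13582826 (plus strand), encodes vimentin, whose filaments surround the nucleus and collapse to the rear of migrating lymphocytes. It was at 173 and 178 FPKM in Cd69-/- term-diff libraries, 117 and 102 in wild-type term-diff, 91.3 and 88.5 in Cd69-/- stem-like, and 43.9 and 52.1 in wild-type stem-like. The 4 groups did not overlap and stood in that order from high to low. In Cd69-/- cells Vim rose in term-diff by 0.96 ± 0.15 (adjusted p = 0.00721), which was lost without Cd69-/- term-diff 2 or either Cd69-/- stem-like library (0.0523 to 0.0553). In wild-type cells it rose by 1.18 ± 0.15 (adjusted p = 0.00220), a call that held without any single library. Over both genotypes Vim had the smallest adjusted p of the 10 for the subsets (1.07 ± 0.11, adjusted p = 0.000335).

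Between the genotypes the difference of Vim was 0.68 ± 0.15 in term-diff (adjusted p = 0.163) and 0.90 ± 0.15 in stem-like cells (adjusted p = 0.116), neither of which passed. Taken over both subsets Vim rose by 0.79 ± 0.11 (adjusted p = 0.0219), lost without any of 6 libraries (0.0649 to 0.107): all but wild-type term-diff 1 and wild-type stem-like 2. With each library rescaled to an equal sum of FPKM the value turned to -0.01 (adjusted p = 0.986). That rescaling moved the median of all genes by -0.65, and Vim stood 0.64 above the moved median.

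Across the set, the subset comparison in Cd69-/- cells had a median difference of 0.95 over the 10 genes and -0.03 over all genes, and the 2 groups did not overlap, term-diff higher, in 9 of 10 genes (24.5% of all genes). In wild-type cells the median difference was 0.68 over the 10 genes and 0.06 over all genes. There, term-diff was higher without overlap in 6 genes (33.4% of all genes) and lower in 1, S100a10 (21.8%). All 4 term-diff libraries lay above all 4 stem-like libraries for S100a4, S100a6, S100a11 and Vim, 4 of 10 genes (10.9% of all genes). The 2 subset comparisons use separate libraries, and their values for all 10 genes stand side by side in the plot of differences. Rescaling to an equal sum of FPKM left no subset call among the 10, although the 9, 7 and 9 genes above the all-gene median in Cd69-/- cells, in wild-type cells and over both genotypes numbered the same as before.

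**Figure D2:**
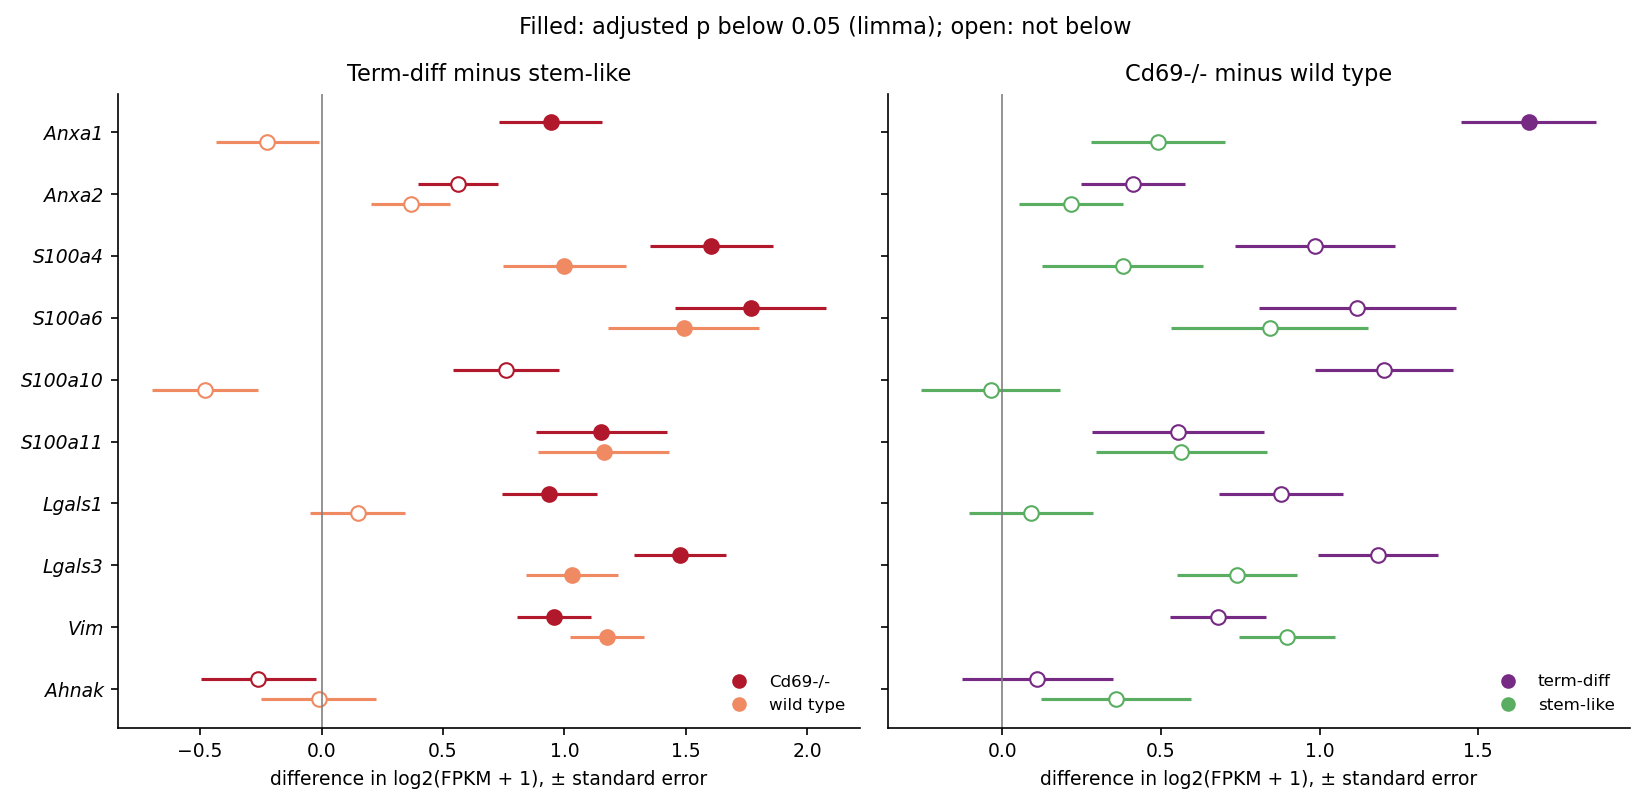
Difference in log2(FPKM + 1) with its standard error for the 10 genes, term-diff minus stem-like (left, Cd69-/- above wild type) and Cd69-/- minus wild type (right, term-diff above stem-like). Filled points have an adjusted p below 0.05, and on the left the Anxa1, S100a10 and Lgals1 points of the 2 genotypes are the farthest apart, with S100a10 at 0.76 in Cd69-/- and -0.48 in wild-type cells.

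Between the genotypes, all 10 genes had a difference above 0 in term-diff cells, with a median of 0.93 against -0.05 over all genes, though under rescaling to an equal sum of FPKM, which moved the all-gene median by -0.86, 9 of the 10 lay above that median and 6 below 0. Cd69-/- libraries were higher without overlap in 9 of them (19.7% of all genes), and 8 had an unadjusted p below 0.05 (15.1% of all genes in either direction). After adjustment Anxa1 alone passed. Lgals3 and S100a10 came next, with the values given above, and then Lgals1 (0.88 ± 0.20, adjusted p = 0.163) with Vim at the same adjusted p, S100a4 (0.99 ± 0.25, adjusted p = 0.185), S100a6 (adjusted p = 0.204), Anxa2 (0.41 ± 0.16, adjusted p = 0.302) and S100a11 (0.55 ± 0.27, adjusted p = 0.369). In stem-like cells 9 of 10 were above 0, with a median of 0.44 against 0.06 over all genes, and under the same rescaling 5 were above 0 and 8 above the all-gene median. Cd69-/- stem-like libraries were higher without overlap for Anxa1, Anxa2, S100a6, Lgals3, Vim and Ahnak, 6 of 10 (26.3% of all genes), and 4 had an unadjusted p below 0.05 (7.26%), while none passed after adjustment in limma. With voom on the implied fragments, 8 passed in term-diff, where it called 340 of 9782 genes (3.48%, against 19 genes in limma on log2(FPKM + 1)), and 1, Vim, in stem-like cells, where it called 43 genes against 15.

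Transcript length moved with the term-diff genotype comparison. Among genes with a mean of at least 5 FPKM, the median difference of Cd69-/- minus wild-type term-diff was 0.38 for 320 genes with transcripts under 1000 bases, of which 90.3% were above 0. The median was 0.12 for 871 genes of 1000 to 1999 bases, -0.06 for 1533 genes of 2000 to 3999 bases and -0.15 for 1452 genes of 4000 bases or more. In stem-like cells the same 4 classes had medians of 0.07, 0.06, 0.09 and 0.08, so the trend was seen in the term-diff comparison. It was also present between the subsets of Cd69-/- cells (0.36, 0.12, -0.0025 and -0.13 from the shortest to the longest class) but not between those of wild-type cells (0.07, 0.08, 0.13 and 0.11).

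Of the 10 genes, 5 fall in the shortest class: S100a4 (498 bases), S100a11 (511), S100a10 (685), S100a6 (731) and Lgals1 (800). Lgals3 (1419), Anxa2 (1447) and Anxa1 (1674) fall in the next, Vim (2193) in the third, and Ahnak in the longest. With a length trend subtracted from each library, an alternative chosen after the data were seen that tests the 8449 genes with a length, 68 genes passed between the genotypes in term-diff cells. The difference there was 0.07 for S100a11 (adjusted p = 0.926), 0.49 for S100a4 (adjusted p = 0.167), 0.55 for Lgals1 (adjusted p = 0.101) and 0.76 for S100a6 (adjusted p = 0.22). S100a10 kept 0.82 (adjusted p = 0.0257), Lgals3 1.06 (adjusted p = 0.0208), Vim 0.68 (adjusted p = 0.0325) and Anxa1 1.58 (adjusted p = 0.0203), and these 4 passed. In stem-like cells Vim passed under it (0.83, adjusted p = 0.0179). Between the subsets S100a11 no longer passed in Cd69-/- cells (0.63, adjusted p = 0.140), Anxa2 did (0.42, adjusted p = 0.0443), and S100a10 passed as lower in wild-type term-diff cells (-0.54, adjusted p = 0.0127). In Cd69-/- cells the subset difference of S100a10 shrank to 0.35 (adjusted p = 0.0885), against 0.76 without the correction.

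**Figure D3:**
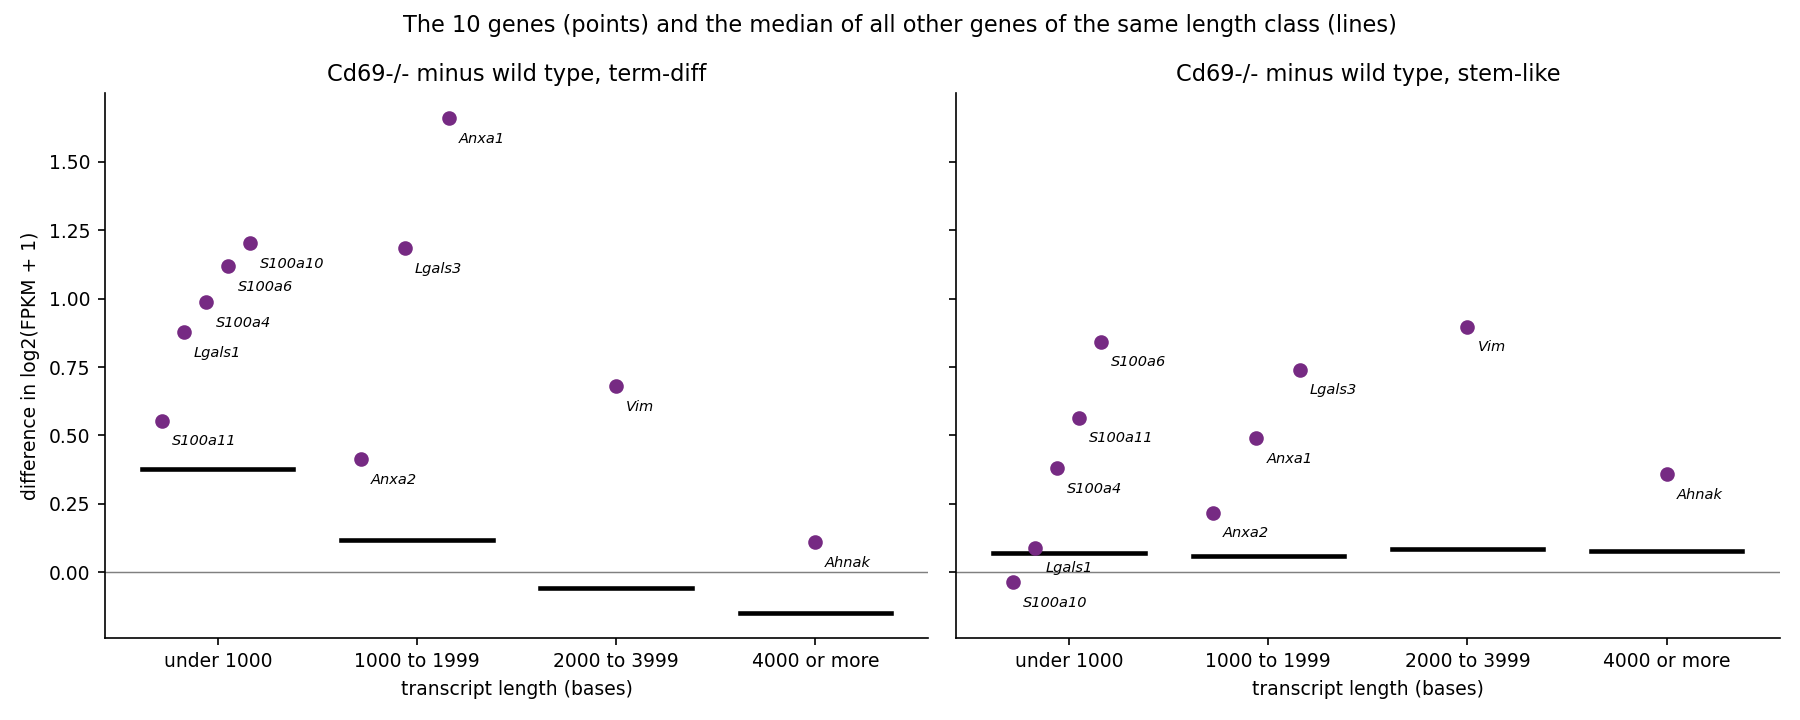
Difference in log2(FPKM + 1), Cd69-/- minus wild type, of the 10 genes (points) by class of transcript length in bases, in term-diff (left) and stem-like cells (right); the position of points within a class has no meaning. Horizontal lines are medians of all other genes of the class with a mean of at least 5 FPKM, and they step down from 0.38 to -0.15 with length on the left and stay between 0.06 and 0.09 on the right.

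The test of whether the subset difference itself differed between the genotypes passed for none of the 10 genes (0.0307% of all genes passed in either direction), and 3 had an unadjusted p below 0.05 (9.09% of all genes). These were S100a10, with 1.24 ± 0.31 more in Cd69-/- cells (adjusted p = 0.539), Anxa1 with 1.17 ± 0.30 (adjusted p = 0.539) and Lgals1 with 0.79 ± 0.28 (adjusted p = 0.542). For S100a11 the value was -0.01 ± 0.38 (adjusted p = 0.994), and for Vim -0.22 ± 0.21 (adjusted p = 0.717). The same length classes had medians of 0.31, 0.05, -0.14 and -0.23 in this comparison, from the shortest to the longest, so the S100a10 and Lgals1 values belong to the class with the highest median. Voom on the implied fragments called 0 of all 9782 genes here.

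The levels were ordered alike for most genes. By group mean, 7 of 10 ran Cd69-/- term-diff, wild-type term-diff, Cd69-/- stem-like and wild-type stem-like, highest first: Anxa2, S100a4, S100a6, S100a11, Lgals1, Lgals3 and Vim. Within it, S100a6 and Vim had all 4 groups apart, S100a4 and S100a11 had overlapping stem-like groups, Anxa2 and Lgals3 had overlapping middle groups, and Lgals1 had its lower 3 groups overlapping. The share of all genes with this order, or with all 4 groups apart, was not counted, so neither is shown to be particular to the 10 genes. S100a10 and Anxa1 had wild-type term-diff as their lowest group instead, and Ahnak was highest in Cd69-/- stem-like cells. By rank of group mean among the 9782 genes, S100a4 stood at 185 in Cd69-/- term-diff, 259 in wild-type term-diff, 374 in Cd69-/- stem-like and 440 in wild-type stem-like cells. Lgals3 stood at 1033 in Cd69-/- term-diff, 2518 in wild-type term-diff, 3116 in Cd69-/- stem-like and 4870 in wild-type stem-like cells. Ahnak stayed between 196 and 256 in all 4.

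Ratios within a library separated the subsets for S100a4 against S100a10. The ratio was 1.13 and 1.11 in Cd69-/- term-diff libraries, 1.29 and 1.32 in wild-type term-diff, 0.601 and 0.640 in Cd69-/- stem-like, and 0.507 and 0.421 in wild-type stem-like. Every term-diff library was above 1 and every stem-like library below it. The ratio of Vim to Ahnak was 1.21 and 1.59 in Cd69-/- term-diff libraries, 1.22 and 0.713 in wild-type term-diff, 0.531 and 0.660 in Cd69-/- stem-like, and 0.388 and 0.421 in wild-type stem-like. It was higher in all 4 term-diff libraries than in all 4 stem-like libraries, with wild-type term-diff 2 close to the stem-like range.

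**Figure D4:**
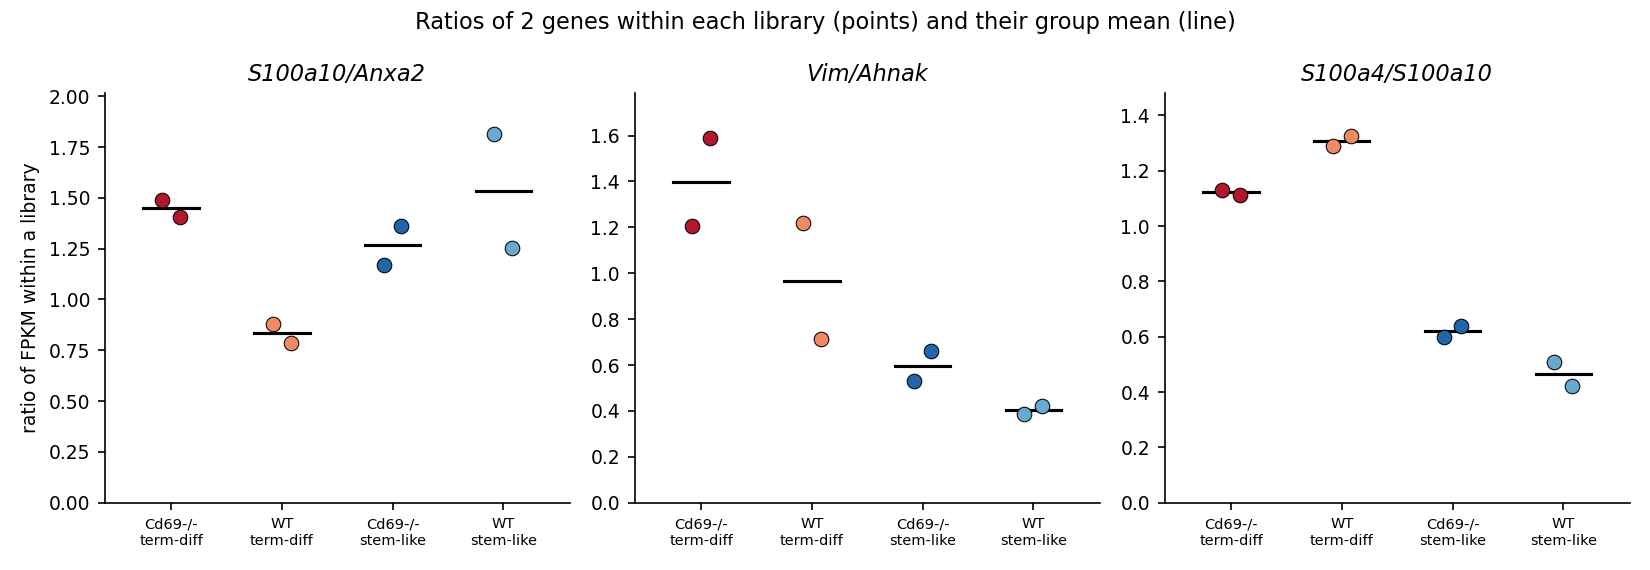
Ratio of FPKM of 2 genes within each library (points, with the group mean as a line, axes from 0) for S100a10 over Anxa2, Vim over Ahnak and S100a4 over S100a10. S100a10 over Anxa2 falls below 1 in wild-type term-diff libraries alone, and S100a4 over S100a10 lies above 1 in the 4 term-diff libraries and below 1 in the 4 stem-like libraries.

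The genes with the most similar profile over the 8 libraries were sought among 4731 genes with a mean of at least 5 FPKM, by the mean absolute difference of profiles centred on each gene's mean in log2(FPKM + 1). Ahnak was nearest to Dennd2d (0.06) and Plec (0.08), where the median gene was 0.23 away. Anxa2 was near to Gapdh (0.06; median gene 0.29), and Lgals1 to Tmsb4x (0.11) and Myl6 (0.11; median 0.40), both abundant cytoskeletal transcripts. Vim was nearest to Csf1 (0.10) and Sh3bgrl3 (0.11; median 0.54), S100a11 to Hcst (0.16) and Atp2b4 (0.17; median 0.57), and S100a10 to Rpl31-ps12 (0.10) and 3110003A17Rik (0.11; median 0.44). Anxa1 was nearest to Klrd1 (0.17) and Crip1 (0.19; median 0.58), S100a4 to AW112010 (0.18) and Hist2h4 (0.18; median 0.67), Lgals3 to Hist1h2bg (0.22) and Ctla2a (0.24; median 0.67), and S100a6 to Gp49a (0.25) and Prf1 (0.30; median 0.84). These are distances between libraries that share groups, and they carry no test.

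Other members of the same families were counted beside the 10 genes, in the comparison of the subsets over both genotypes, where 10.5% of all genes rose and 9.93% fell. Of 10 other annexins, 6 passed the filter, and over both genotypes 2 rose in term-diff: Anxa11 (0.60 ± 0.09, adjusted p = 0.00224) and Anxa6 (0.48 ± 0.11, adjusted p = 0.0155), both membrane-binding annexins. Of 12 other S100 genes 2 passed the filter, and S100a13 rose (0.46 ± 0.11, adjusted p = 0.0195). Of 9 genes listed as other galectins or galectin-binding, Lgals3bp among them, 6 passed it. Lgals3bp, a secreted ligand of galectin-3, rose (0.83 ± 0.18, adjusted p = 0.0129), while Lgals9 did not pass (0.22 ± 0.11, adjusted p = 0.204). The medians of these lists over both genotypes were 0.08, 0.24 and 0.04, against 0.80 for the 10 genes and 0.02 for all genes.

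Among 31 cytoskeletal genes tested, 15 rose and 2 fell in term-diff over both genotypes, where 10.5% of all genes rose and 9.93% fell, with a median of 0.39. Flna, the actin cross-linker filamin A, rose (0.95 ± 0.10, adjusted p = 0.000391), and Vcl, the focal adhesion protein vinculin, fell (-0.84 ± 0.12, adjusted p = 0.00214). Of 17 effector and migratory genes 6 rose and 5 fell, against the same shares of all genes. Of 10 genes of the annexin A2 complex and surface fibrinolysis 2 passed the filter. Plaur, the urokinase receptor, fell (-1.28 ± 0.17, adjusted p = 0.00117). It was at 1.26 to 2.57 FPKM in stem-like libraries and 0.092 to 0.291 in term-diff libraries, where it stood for 1 to 3 implied fragments. Plaur thus passed the filter through its stem-like libraries alone, so its fall is not independent of the filter. Serpinb9, which rose (0.82 ± 0.10, adjusted p = 0.000867), was in that list but encodes an intracellular granzyme B inhibitor, a role outside the complex and outside fibrinolysis. None of the genes in these lists passed between the genotypes or in the interaction.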

How the data were processed

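Gene expression was measured by single-end RNA-seq of total RNA in 8 libraries, 2 in each of 4 groups taken from the sample titles. The authors deposited 1 gene table per library with FPKM and its confidence limits. Per the submitters' processing notes, Cufflinks 2.2.1, TopHat 1.3.2, Bowtie2 2.3.4 and bcl2fastq 2.20 were used with build mm10. Which annotation, strand setting and library total lay behind the FPKM was not given in the sources used here. No counts were used as such; fragments implied by the confidence limits are approximate and cover counting error only.

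From these values, log2(FPKM + 1) was modelled in R 4.3.3 with limma 3.58.1 (4 group means, 4 residual degrees of freedom, prior of 4.2, empirical Bayes with a trend) for genes of at least 1 FPKM in at least 2 libraries, and rows with a status other than OK (3 genes) were left out. Tests were 2-sided and adjusted over all 9782 genes. The procedure was tested on simulated data. All 8 libraries shared 1 estimate of the spread. Members, gene lists and tests were chosen with earlier results of these data known. Named genes were the 10 members, up to 5 genes per related list by smallest p of the subset comparison over both genotypes, any list gene passing between genotypes, and the 2 nearest profiles to each member; some of these are not reported here. Transcript lengths were those of the longest protein-coding transcript in GENCODE vM21, which matched 86.4% of genes tested. Loci are the deposited ones with starts counted from 1. Alternatives, 20 planned and 3 added after the data were seen, changed 1 choice at a time, except that voom changed the input and the model, and that taking out small RNA (9617 genes tested) or the length trend (8449 genes) changed the values and the genes tested.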

Additional observations from a re-analysis of the deposited data

Results flagged for a closer look

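S100a10, the partner of annexin A2, had subset differences of opposite sign in the 2 genotypes, neither of which passed (0.76, adjusted p = 0.0688 in Cd69-/- and -0.48, adjusted p = 0.196 in wild-type cells in limma): both Cd69-/- term-diff libraries (177 and 184 FPKM) lay above both Cd69-/- stem-like libraries (91.2 and 124 FPKM), and both wild-type term-diff libraries (89.9 and 67.4 FPKM) lay below both wild-type stem-like libraries (123 and 96.6 FPKM). The difference of the subset differences was 1.24 ± 0.31 on the log2(FPKM + 1) scale, Cd69-/- minus wild type, with an adjusted p of 0.539 over all genes in limma, so it did not pass. Other genes with transcripts under 1000 bases had a median of 0.31 in the same comparison. Single subset differences of S100a10 passed under some alternatives. The fall in wild-type cells passed in limma with quantile normalization (adjusted p = 0.0264) or the length trend taken out (0.0127), and with voom (0.0348). The rise in Cd69-/- cells passed in limma with robust hyperparameters (0.0236) or small RNA taken out (0.0196), and with voom (0.00232). The other alternatives called neither.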

How the results depend on the processing

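The 70 member results were recomputed to 1573 values under 20 alternatives listed at the start and 3 added after the data were seen. Of these, 1355 kept their direction and their side of the threshold, 126 lost a call, 37 gained one, and 1 called and 54 uncalled values changed sign. Counts of the 10 genes called were 7, 5 and 7 for term-diff against stem-like in Cd69-/-, in wild type and over both genotypes, 1, 0 and 3 for Cd69-/- against wild type in term-diff, in stem-like and over both subsets, and 0 for the interaction, which stayed at 0 under every alternative. For the subsets in Cd69-/- the count was 3 with no filter, 4 with quantile normalization and 0 with equal sums. These settings called 545, 947 and 71 of all genes, against 924. The count was 9 with voom or robust hyperparameters and 8 with small RNA taken out (1634, 1141 and 1251 of all genes). It was 6 with a pseudocount of 0.1 or a filter of 5 FPKM (894 and 661). In wild type the count was 2 with no filter, 2 with only the groups compared, and 0 with equal sums (752, 756 and 153 of all genes, against 1278). It was 6, with S100a10 added as lower, with quantile normalization, voom or the length trend taken out (1369, 1883 and 1687). Over both genotypes the count was 5 with no filter or quantile normalization and 0 with equal sums (1500, 2199 and 252 of all genes, against 2001). With no filter 22397 genes were tested. For the genotypes in term-diff it was 0 with a pseudocount of 0.1, no filter, a filter of 5 FPKM, median-of-ratios scaling, quantile normalization, equal sums or the replicate block. These called 16, 11, 3, 13, 9, 62 and 6 of all genes. Anxa1, at 4.07 FPKM at most, was not tested with the filter of 5 FPKM. The count was 2 with a pseudocount of 5, 8 with voom, 4 with robust hyperparameters, 5 with small RNA taken out and 4 with the length trend taken out. These 5 settings called 26, 340, 78, 121 and 68 of all genes, against 19. In stem-like it was 1 with voom, robust hyperparameters, small RNA taken out, or the length trend taken out, which called 43, 35, 37 and 20 of all genes, against 15. Over both subsets it was 0 with no filter, 0 with equal sums, 7 with voom and 5 with small RNA taken out (13, 75, 239 and 123 of all genes, against 53). Leaving out 1 library at a time, which leaves 1 library in its group, raised none of these counts. It lowered each count above 0 for at least 1 library left out. All of these fits called fewer of all genes in the subset comparisons too, and most did so between the genotypes.

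Equal sums divided libraries by factors from 0.437 in wild-type term-diff 2 to 1.42 in Cd69-/- term-diff 1, since 835 rows of small RNA held 55.1% to 84.1% of the FPKM. This rescaling turned Vim over both subsets to -0.0089 (adjusted p = 0.986 in limma). With the replicate block the counts were 7, 4, 7, 0, 0, 2 and 0 in the order above: S100a4 in wild type (adjusted p = 0.0562), Anxa1 in term-diff (0.0635) and Vim over both subsets (0.0565) lost their calls. In the same order the block called 746, 1070, 1820, 6, 8, 40 and 2 of all genes, against 924, 1278, 2001, 19, 15, 53 and 3. Deviations of same-numbered libraries correlated at 0.15 between the wild-type groups, whose replicate 2 libraries also had the lowest small RNA shares of FPKM. The other pairs of groups correlated at -0.30 to 0.09, so the numbers were not taken to pair libraries. The cause of the changed calls was not tested. Anxa1 rests on 3.0 to 37.6 implied fragments a library, so its levels are the least precise of the 10. With 2 libraries a group, a difference that did not pass is not shown to be absent.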

Other observations

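Within the S100 cluster and the galectins, further ratios of FPKM within a library were uneven between groups. Lgals3 over Lgals1 was 0.147 and 0.106 in Cd69-/- term-diff libraries, 0.101 and 0.0921 in wild-type term-diff, 0.0751 and 0.0856 in Cd69-/- stem-like, and 0.0352 and 0.0627 in wild-type stem-like. Every term-diff library was above every stem-like library, in both genotypes. S100a6 over S100a4 was 0.565 and 0.406 in Cd69-/- term-diff libraries, 0.486 and 0.387 in wild-type term-diff, 0.540 and 0.330 in Cd69-/- stem-like, and 0.176 and 0.503 in wild-type stem-like. All 4 groups overlapped, and the lowest value was that of wild-type stem-like 1. By profile over the 8 libraries, the closest members were Lgals3 and Vim (mean absolute difference of centred log2(FPKM + 1) of 0.18) and S100a11 and Vim (0.18), and the farthest were S100a6 and Ahnak (0.95).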
